A study of Mus musculus with 14 samples.

Results

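The 960 3' ends described here are poly(A) sites whose mRNAs were concentrated in the lightest polysomes of a sucrose gradient of mouse 3T3 cells, a fibroblast line. They are called members in what follows. They were chosen by the gradient values themselves: at least 100 raw counts over the 6 fractions, at least 40% of the scaled counts in the fraction named 2.5, and under 20% in the fraction named 0. The authors' deposited table lists 33590 sites, of which 16283 had 100 or more fraction counts. The members were 5.90% of those, and the remaining 15323 are the other sites they are set beside.

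The study examined how the choice of 3' end goes with mRNA stability and with ribosome loading. All 12 libraries used here were 2P-Seq, which reverse transcribes poly(A) RNA from its tail and counts reads at the 3' end. Of these, 2 were from control 3T3 cells and 4 from 3T3 cells treated with actinomycin D (10 µg/ml final), for 1, 2, 4 or 8 h. The last 6 were the gradient fractions, 1 library per fraction, from 3T3 cells for which the labels name no drug. The labels name no genotype, clone or passage for any of these groups.

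An mRNA under translation carries several ribosomes along its coding region, and the number it can carry is limited by the length of that region as well as by how often translation starts. In a sucrose gradient, mRNA without ribosomes stays near the top and mRNA with more ribosomes sediments further, so mRNAs with short coding regions are typically found in the monosome and light polysome fractions. Actinomycin D blocks transcription, so the mRNA that remains with time shows how fast existing molecules are lost. The fraction columns are named 0, 1, 2.5, 4.5, 7.5 and 12. For 960 of 960 members the ribosomes per mRNA in the authors' deposited table equalled the mean of those numbers weighted by the scaled counts (tolerance 1e-06), so the names were read as ribosome numbers. The positions are given in the mm9 build without gene names. Genes, coding lengths and sequence were not analysed here, and the cell line's markers could not be checked.

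Library totals ran from 4045420 counts (8 h) to 6433503 (control 2) in the control and actinomycin D libraries and from 1663346 (fraction 0) to 11575417 (fraction 12) in the gradient. A count of 0 at 8 h allows a level of up to 0.742 CPM (counts per 1e6 of the library total; 3 counts). PCR reads are not independent molecules, so such limits and intervals cover counting error only. Nothing in the labels says that the controls are separate cultures. With 1 library for every time point and fraction, a p-value measures only how these libraries scatter around a line, and that scatter may be technical. These are bulk samples, in which fewer cells with an mRNA and less of it per cell cannot be told apart.

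The gradient profile of the members was a peak in fraction 2.5 with a shoulder in fraction 4.5 and a low tail beyond it. Because these values chose the members, they are a description and carry no test. The median share in fraction 2.5 was 44.6% in members and 17.8% in other sites, and the members ran from 40% to 66.5%, with the middle 50% between 42.3% and 48.0%. In fraction 1 the medians were 14.2% in members and 6.34% in other sites, and in fraction 4.5 they were 19.7% and 17.6%. The heavier fractions held little of the members' counts: fraction 7.5 had a median of 7.23% in members against 18.6% in other sites, and fraction 12 had 7.42% against 26.7%. The ribosome-free fraction 0 was alike, with 3.72% in members and 3.90% in other sites, although the choice left out sites with much of their counts there. The ribosomes per mRNA in the authors' deposited table had a median of 3.68 in members, from 2.35 to 5.59, and of 6.48 in other sites, from 0.0382 to 10.3.

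**Figure D1:**
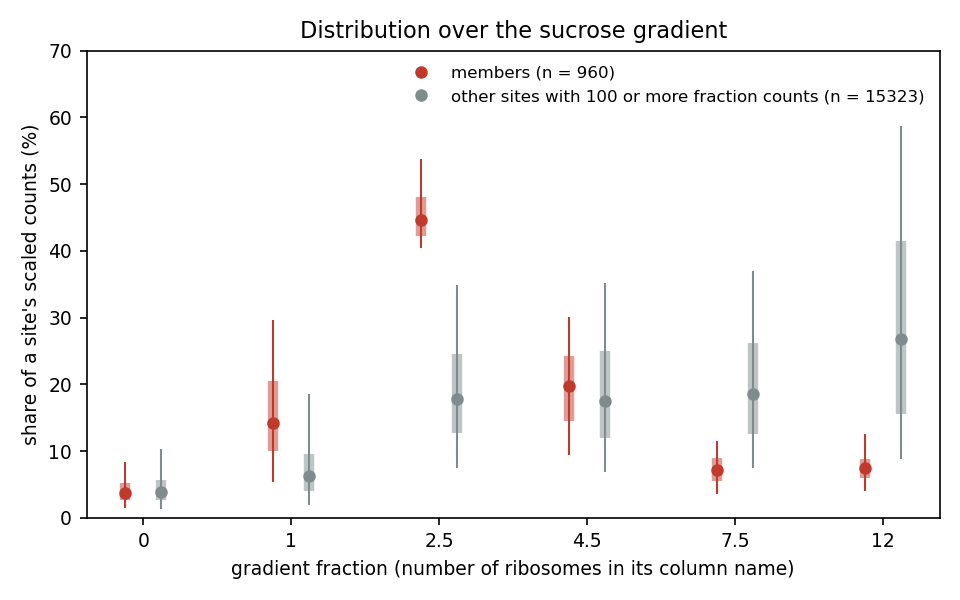
Share of a site's scaled counts (percent) in each gradient fraction, for members (red, left of each pair) and other sites with 100 or more fraction counts (grey). Points are medians over sites, thick bars the middle 50% and thin bars the 5th to 95th percentile. Members peak at a median of 44.6% in fraction 2.5, while other sites have their highest median, 26.7%, in fraction 12.

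The peak covered about 3 neighbouring fractions rather than 1. Fractions 1, 2.5 and 4.5 together held a median of 81.3% of a member's counts, against 44.1% for other sites. The spread of ribosome number within a site, as a weighted SD, had a median of 2.90 ribosomes in members and 3.88 in other sites. Sites with 40% or more in another fraction had medians of 2.39 (48 sites, fraction 0), 2.36 (55, fraction 1), 3.01 (207, fraction 4.5), 3.32 (384, fraction 7.5) and 4.32 (4207, fraction 12). The members' spread was thus near that of equally strong peaks in fraction 4.5 and above that of peaks in fractions 0 and 1. The share in the highest fraction was a median of 1.98 times that in the next one in members, from 1.03 to 5.86 times, and 1.43 times in other sites. By another measure the members were hardly narrower: 90% of the counts lay in 4 fractions for 485 members (50.5%) and in 5 fractions for 469 (48.9%), while 4 fractions were enough for 47.7% of other sites and 5 for 50.1%. Only 6 members (0.625%) needed 3. The low median in fractions 7.5 and 12 was therefore a tail spread over both rather than an empty region.

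A peak at fraction 2.5 was common among all sites, and a strong peak there was less so. The highest of the 6 fractions was 2.5 for 3537 of the 16283 sites (21.7%), and 961 of these (27.2%) had 40% or more in it. Fraction 12 was the highest for 7307 sites (44.9%), of which 57.6% had 40% or more in it. Fractions 4.5 and 7.5 were the highest for 2357 and 2773 sites and reached 40% in 8.78% and 13.9% of them. The site that passed the limit for fraction 2.5 and not that for fraction 0 was the end on chromosome 10 (minus strand, 23506256, mm9), with 40.4% in fraction 2.5 and 22.0% in fraction 0.

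The limit of 40% cut through a continuous distribution. The 3 members just inside it lay on chromosome 8 (plus strand, 128263074), chromosome 2 (plus strand, 173527682) and chromosome 17 (plus strand, 33441626), with between 40% and 40.02% in fraction 2.5. The 3 sites just outside lay on chromosome 1 (plus strand, 164525498), chromosome 15 (plus strand, 76184801) and chromosome 14 (plus strand, 21195622), with 39.99%, 39.98% and 39.97%. The counting error of the share was between 0.0672 and 5.28 percentage points (standard error, median 2.03). By that error, 442 members were within their 95% counting error above the limit and 739 other sites within theirs below it, so many ends could fall on either side. The fraction 0 limit was almost idle: the nearest members inside it were on chromosome 5 (plus strand, 28745783) at 19.6%, chromosome 11 (minus strand, 74720297) at 17.6% and chromosome 10 (minus strand, 38838611) at 15.2%.

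The choice of members also rests on the factors that the file headers give for the fractions. With each fraction divided by its library total instead, 98 sites (0.602%) met the same limits. Members were 321 of the 4860 sites with 100 or more and under 300 fraction counts (6.61%), 244 of 4992 with under 1000 (4.89%), 325 of 5730 with under 10000 (5.67%) and 70 of 701 with 10000 or more (9.99%). The share of sites that are members was therefore lowest at middle depth and highest among the deepest sites.

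The side of the peak on which the rest of the counts lay divided the members. Fraction 4.5 was the next highest in 591 members (61.6%) and fraction 1 in 351 (36.6%), while fractions 12, 7.5 and 0 were next in 15, 2 and 1. Members with fraction 4.5 next had a median of 3.92 ribosomes per mRNA and 14.4 CPM in the controls. Members with fraction 1 next had 3.15 ribosomes per mRNA and 10.3 CPM. The 15 members with fraction 12 next, a profile with a light peak and a heavy tail, had a median of 2.52 CPM and a median half-life of 0.805 h in the authors' deposited table.

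Members ranged widely in abundance and were not an abundant class as a whole. Their mean control level in CPM had a median of 12.1, against 16.99 in other sites, with the middle 50% between 3.85 and 49.2 in members and between 6.28 and 47.3 in other sites. By library, the median was 11.7 CPM in control 1 and 12.98 CPM in control 2. The lowest member had 0.327 CPM and the highest 7801.5, while 11 members were above 1000 CPM and 28 under 1 CPM. The log2 ratio of control 1 to control 2 had an SD of 0.35 over the 429 members with at least 200 control counts and of 0.42 over 7832 such other sites. Members were 8.86% of sites under 5 CPM (296 members), 5.04% at 5 to 20 CPM (279), 4.74% at 20 to 100 CPM (258) and 6.48% at 100 CPM or more (127). Both ends of the abundance range thus held a higher share of members than its middle. Only sites with 100 or more gradient counts were counted here, and members had more gradient counts per control count than other sites. The share under 5 CPM is therefore tied to that minimum and is no measure of abundance alone. The log2 ratio of summed gradient counts to control counts, each scaled by the header factors, had a median of 0.65 in members and -0.02 in other sites. With raw counts the medians were 0.46 and 0.03. The gradient sum includes the values that chose the members, so this ratio is a description.

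Members supplied a larger share of the counts in the light fractions than in the heavy ones, as their choice implies. Members took 7.83% of all counts in fraction 0, 20.3% in fraction 1, 25.05% in fraction 2.5, 12.9% in fraction 4.5, 4.54% in fraction 7.5 and 3.55% in fraction 12. The 10 most abundant members alone took 9.79% of the counts of fraction 2.5 and 1.31% of those of fraction 12. In the whole-cell libraries the members' share was 7.96% and 7.83% in controls 1 and 2, then 8.63%, 9.73%, 10.7% and 11.8% (1, 2, 4 and 8 h of drug). The 10 most abundant made up 3.21%, 3.07%, 3.60%, 4.43%, 5.07% and 5.95% of the same 6 libraries. Wilson 95% intervals of these shares were no wider than 0.0408 percentage points on either side. The members' share at each time was above both controls and was highest at 8 h.

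The most abundant member was the end on chromosome X (minus strand, 163645025, mm9). Its share was 4.56% in fraction 0, 36.0% in fraction 1, 44.6% in fraction 2.5, 7.77% in fraction 4.5, 3.19% in fraction 7.5 and 3.91% in fraction 12. Its counts thus lay mostly in fractions 1 and 2.5, on the light side, with 2.53 ribosomes per mRNA. In raw counts fraction 1 (238982) was above fraction 2.5 (214138), so the place of its peak rests on the header factors. Its level was 6811.8 and 8791.2 CPM in the controls, then 10280.9, 11011.2, 13867.1 and 17517.8 (1, 2, 4 and 8 h of drug). All 4 treated libraries were above both controls, and its fitted slope was 0.25 ± 0.03 log2 per hour (SE) relative to the library (adjusted p = 0.000141, edgeR).

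The next most abundant member lay on chromosome 3 (plus strand, 90418335). It leaned to the heavy side, with 7.70% in fraction 1, 42.3% in fraction 2.5 and 31.8% in fraction 4.5, and had 4.16 ribosomes per mRNA. It had 8065.5 and 6051.9 CPM in the controls, then 7804.3, 12142.4, 12230.0 and 13558.8 (1, 2, 4 and 8 h of drug). The 1 h library lay between the controls and the later ones above both. Its slope was 0.23 ± 0.04 log2 per hour (adjusted p = 0.00091, edgeR), but with the header factors in place of TMM it was 0.08 and did not pass (adjusted p = 0.0805).

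The remaining 8 of the 10 most abundant members had between 1057 and 3919 CPM in the controls and between 40.3% and 53.6% in fraction 2.5. They lay on chromosomes 4 (57956632), 2 (179993146), 11 (54683992), 3 (93368564), 6 (6508289), 10 (80292034), 1 (122009872) and 17 (35087192). The end on chromosome 6 (minus strand, 6508289) was the sharpest of the 10, with 18.1% in fraction 1, 53.6% in fraction 2.5 and 14.8% in fraction 4.5, and it was the only annotated end of its locus. It had 1829.4 and 1918.7 CPM in the controls, then 2191.7, 2272.4, 2886.2 and 3648.1 (1, 2, 4 and 8 h of drug). The controls were the lowest libraries and 8 h the highest. The end on chromosome 17 (minus strand, 35087192) was the lightest, with 13.7% in fraction 0, 29.3% in fraction 1 and 40.3% in fraction 2.5, and 2.44 ribosomes per mRNA. All 10 rose relative to their libraries with TMM scaling (adjusted p from 9.63e-05 to 0.00835, edgeR). With the header factors, the slopes of the ends at 54683992 and 80292034 turned to -0.02 and -0.0047, and that of the end at 35087192 no longer passed (adjusted p = 0.136).

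The members with the highest share in fraction 2.5 were a mixture of scarce and abundant ends. On chromosome 12, the end (plus strand, 25189993) had 66.5% in fraction 2.5 from raw counts of 3, 17, 72, 19, 9 and 6 in fractions 0 to 12, and its share has a standard error of 4.04 points. The ends on chromosome 8 (minus strand, 114515681) with 64.9% and on chromosome 19 (minus strand, 6084163) with 63.5% had standard errors of 2.55 and 4.66 points. These 3 differ by less than the counting error of their shares. The end on chromosome 8 (plus strand, 96704224) had 59.7% with a standard error of 0.179 points and was the deepest of the 6. It had 893.3 and 618.3 CPM in the controls, then 646.2, 620.3, 719.2 and 509.7 (1, 2, 4 and 8 h of drug). Only the 8 h library lay under both controls, and its slope of 0.05 ± 0.04 log2 per hour did not pass (adjusted p = 0.263, edgeR). With the header factors it fell, with a slope of -0.10 log2 per hour (adjusted p = 0.0181, edgeR). The ends on chromosome 6 at 72907340 and 113017424 (both minus strand) each had 58.4%, with standard errors of 0.606 and 3.73 points. With TMM scaling, of the 6 the end at 72907340 passed the test, with a slope of 0.17 ± 0.03 log2 per hour (adjusted p = 0.00181, edgeR) that was 0.02 with the header factors (adjusted p = 0.675).

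After transcription was blocked, more of the members rose and fewer fell, relative to their libraries, than among other sites. The actinomycin D and control libraries were not used to choose the members. Slopes on hours were fitted with edgeR over the 16913 sites with at least 60 counts in these 6 libraries, and 869 members were among them, while 91 members had too few counts. With TMM scaling, 356 of the 869 members (41.0%) rose relative to their libraries and 89 (10.2%) fell at an adjusted p under 0.05. Of all sites tested, 20.8% rose and 28.2% fell, and of the 14420 other sites tested 2824 (19.6%) rose and 4538 (31.5%) fell. The median slope was 0.10 log2 per hour in members, -0.05 in other sites and -0.03 over all sites. A slope here is relative to the rest of the library, so a site that rises may only be lost more slowly than most.

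The sign of the members' median slope depended on the scaling. With the header factors, 62 members (7.14%) rose and 236 (27.2%) fell, against 2.71% rising and 52.7% falling over all sites. The median slope was then -0.05 log2 per hour in members, -0.20 in other sites and -0.18 over all sites. The members' median was 0.13 above that of all sites under both scalings. Another scaling shifts all slopes by about the same amount, so this distance does not test the scaling.

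**Figure D2:**
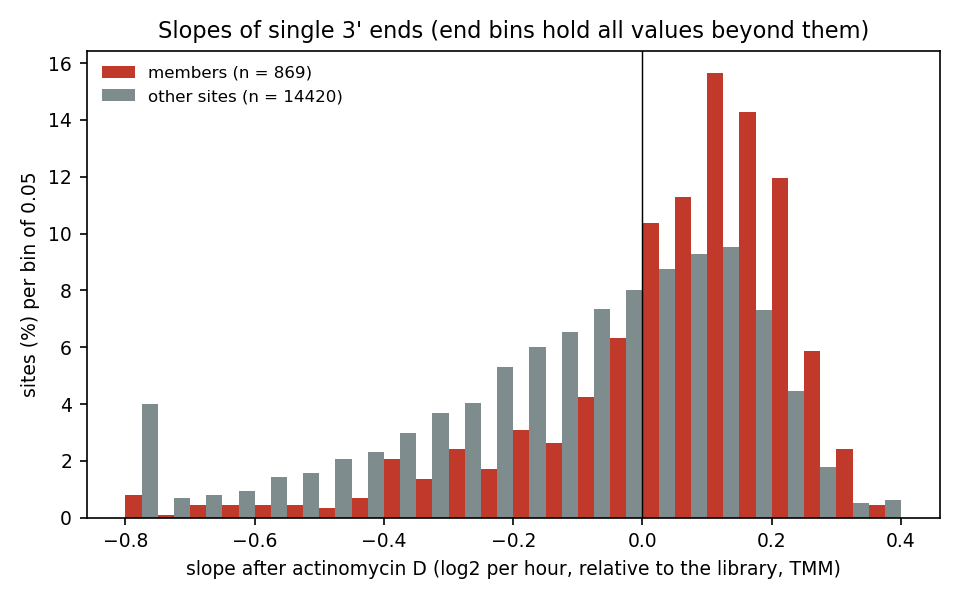
Distribution of the slope after actinomycin D (log2 per hour relative to the library, TMM scaling), in percent of sites per bin of 0.05, for 869 members (red, left bar of each pair) and 14420 other sites (grey). The end bins hold all values beyond them. The members' median is 0.10 and that of other sites -0.05.

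The time course gives the levels behind these counts. Counts were divided by the header factors and set against the mean of the 2 controls, which themselves had medians of 98.6% and 101% in members. The median of the 869 members was 110%, 103%, 94.0% and 77.5% (1, 2, 4 and 8 h of drug). The median of the other sites was 96.5%, 75.6%, 55.8% and 34.1% (1, 2, 4 and 8 h of drug). The members' median therefore stayed near the controls to 4 h, when that of other sites was already well under them. The members also differed among themselves: at 8 h the middle 50% ran from 39.8% to 122% in members and from 11.8% to 76.0% in other sites, so the 2 distributions overlapped. With library totals in place of the header factors the 8 h medians were 96.2% in members and 42.4% in other sites.

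**Figure D3:**
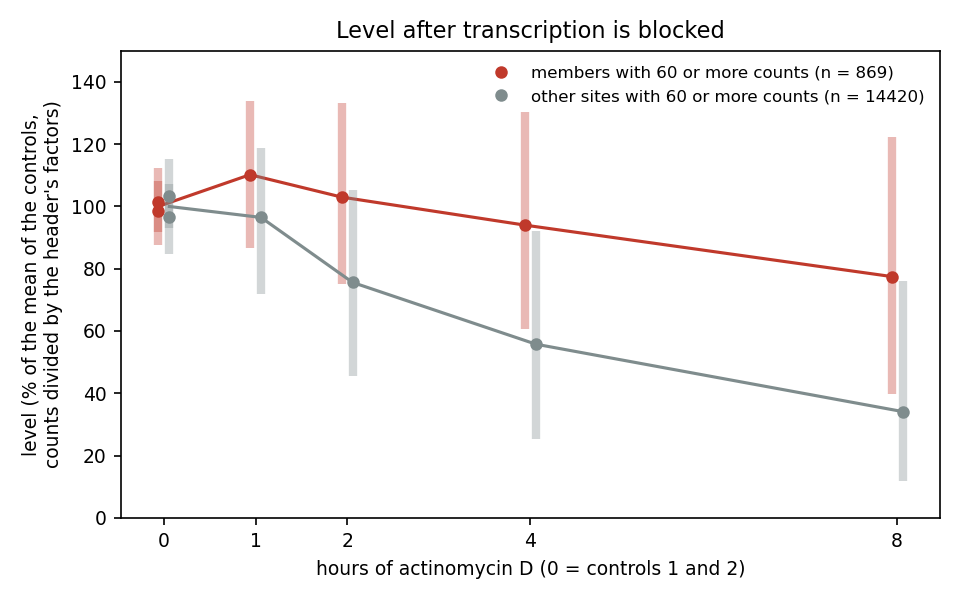
Level after 1, 2, 4 and 8 h of actinomycin D as percent of the mean of controls 1 and 2 (both drawn at 0 h), with counts divided by the header factors, for 869 members (red) and 14420 other sites (grey). Points are medians over sites and bars the middle 50%. At 8 h the median is 77.5% in members and 34.1% in other sites, and the bars overlap.

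The half-lives in the authors' deposited table come from the same 6 libraries and give the same contrast in hours. The file headers name no unit. An exponential fit on hours, with 0.1 per h added to its rate, matched the half-life of 833 of 833 members with 60 or more counts and a value under 50 h (tolerance 0.001 per h), so it was read in hours. A level that stays flat after scaling then gives 6.93 h. The median was 4.86 h over the 939 members with a value, with the middle 50% between 2.83 and 7.92 h, and 2.83 h over 15164 other sites, with the middle 50% between 1.59 and 4.88 h. The other sites include many with heavy peaks. Sites with 40% or more in another fraction had median half-lives of 8.53 h (fraction 0), 8.50 h (fraction 1), 5.10 h (fraction 4.5), 4.30 h (fraction 7.5) and 2.99 h (fraction 12), so a median as long as the members' was also found for strong peaks in the other light fractions. Half-lives under 1 h were found for 58 members (6.18%) against 12.1% of other sites, those under 2 h for 145 members (15.4%) against 33.8%, and those of 8 h or more for 234 members (24.9%) against 9.70%. A missing half-life did not mean few counts: 20 of the 21 members without one had 60 or more counts, and for 20 of these 20 the fitted rate plus 0.1 per h was at or under 0. Of these, 19 rose and passed the test. With these members placed above all others, the median of the tested members was 5.29 h, a calculation added after the data were seen.

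The distance in half-life was found at every level of abundance. Under 5 CPM in the controls the median half-life was 3.88 h in members and 2.78 h in other sites. At 5 to 20 CPM it was 4.46 h in members and 2.43 h in other sites. At 20 to 100 CPM it was 4.97 h in members and 2.82 h in other sites, and from 100 CPM up 7.17 h and 4.56 h. The share of tested members that rose climbed with abundance in step with the other sites: 22.9%, 30.8%, 48.1% and 78.0% in members over the 4 classes, and 10.8%, 12.4%, 20.8% and 47.0% in other sites. Higher counts make a call easier, and the members' median slopes did not climb in the same way. They were 0.10, 0.07, 0.09 and 0.16 log2 per hour in the same order, so only the highest class exceeded the lowest. The share that fell was 3.42%, 13.3%, 15.5% and 3.94% in members and 15.03%, 34.3%, 38.7% and 22.1% in other sites. Members rose more often and fell less often than other sites in all 4 classes.

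**Figure D4:**
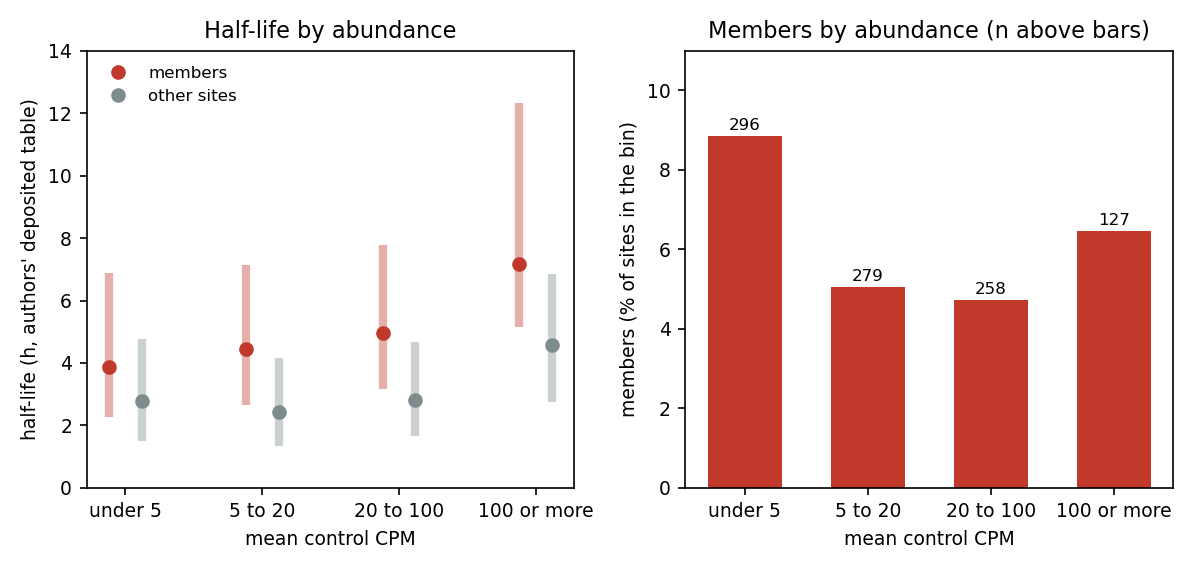
Left, half-life in hours from the authors' deposited table by mean control CPM, for members (red) and other sites (grey), with points for medians and bars for the middle 50%. Right, members as percent of the sites in each class of control CPM, with the number of members above each bar. Median half-lives of members are between 3.88 and 7.17 h and exceed those of other sites in all 4 classes, and members are 8.86% of sites under 5 CPM.

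Within the members, those with longer half-lives had fewer ribosomes per mRNA, though not a higher share in every light fraction. Members with a half-life under 1 h (58) had medians of 9.86% in fraction 1, 11.1% in fraction 12 and 4.13 ribosomes per mRNA. Those with 8 h or more (234) had 15.2% in fraction 1, 6.89% in fraction 12 and 3.54 ribosomes per mRNA. Fraction 0 ran the other way, with a median of 4.68% under 1 h and 3.77% at 8 h or more, and fraction 4.5 had 17.6% and 18.9%, its lowest median being that of the fastest class. These shares are gradient values, on which the members had been limited. The 3 classes between them, of 87, 231 and 329 members, had 3.98, 3.75 and 3.57 ribosomes per mRNA in order of half-life. The median thus fell from class to class among members with a half-life. Abundance moved with these classes too, from 3.89 CPM under 1 h to 18.7 CPM at 8 h or more. The 21 members without a half-life, 20 of them with a fitted rate plus 0.1 per h at or under 0, did not continue this. Their medians were 3.79 ribosomes per mRNA and 3.85 CPM. Across 939 members, Spearman's rho of half-life was -0.32 with the share in fraction 12, -0.30 with ribosomes per mRNA, 0.21 with control CPM, 0.19 with the share in fraction 1, 0.17 with that in fraction 2.5 and -0.07 with that in fraction 4.5. These sites share their libraries and are not independent, so the values are descriptions. By the neighbouring fraction, 144 of 321 tested members with fraction 1 next rose (44.9%) and 15 fell (4.67%), while 212 of 539 with fraction 4.5 next rose (39.3%) and 72 fell (13.4%).

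A minority of members was lost fast. The most negative slope was that of the end on chromosome 17 (plus strand, 33115938), with 27 and 57 counts in the controls, then 8, 1, 1 and 0 (1, 2, 4 and 8 h of drug). It was nearly gone by 2 h, with a slope of -1.63 ± 0.27 log2 per hour (adjusted p = 0.000519, edgeR). In CPM, the limit that 0 counts allow at 8 h was 9.09-fold under the mean of the controls. Another, on chromosome 5 (minus strand, 130160754), had 34 and 37 counts in the controls, then 5, 7, 1 and 0 (1, 2, 4 and 8 h of drug), which is at least 7.80-fold lower at 8 h. A member on chromosome 16 (minus strand, 10783912) started higher, with 427 and 370 counts in the controls, then 30, 40, 12 and 2 (1, 2, 4 and 8 h of drug). Most of its loss had occurred by 1 h, and its half-life in the authors' deposited table is 0.284 h.

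The other 2 of the 5 members with the most negative slopes were still near their controls at 1 h and fell later. The first lay on chromosome 5 (plus strand, 130008919) and had 63 and 66 counts in the controls, then 61, 13, 3 and 0 (1, 2, 4 and 8 h of drug). In CPM, its limit at 8 h was 14.2-fold under the mean of the controls. The other lay on chromosome 7 (minus strand, 144567256) and had 55 and 89 counts in the controls, then 57, 12, 5 and 0 (1, 2, 4 and 8 h of drug). Its limit at 8 h was 15.7-fold under the mean of the controls, also in CPM. In both, the 1 h library was in or next to the range of the controls and each later library was far under it. All 5 passed the test (adjusted p from 0.00029 to 0.0094, edgeR), and their shares in fraction 2.5 were between 41.1% and 52.3%.

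The members that rose most were of low or middle abundance, and no half-life is given for them in the authors' deposited table. The end on chromosome 11 (plus strand, 3417352) had 43.1 and 66.2 CPM in the controls, then 60.1, 107, 121 and 203 (1, 2, 4 and 8 h of drug). From 2 h on it was above both controls, with a slope of 0.35 ± 0.04 log2 per hour (adjusted p = 6.37e-05, edgeR) that was still 0.20 with the header factors. A scarcer end on chromosome 1 (plus strand, 137748836) had 25 and 20 counts in the controls, then 41, 60, 61 and 68 (1, 2, 4 and 8 h of drug), all 4 treated libraries being above both controls. The ends on chromosome 14 (plus strand, 60166186) and chromosome 8 (plus strand, 74746293) had 15 and 33, and 26 and 15, counts in the controls and reached 69 and 62 at 8 h. The highest slope belonged to the end on chromosome 13 (plus strand, 55878124), 0.37 ± 0.13 log2 per hour, from 9 and 0 counts in the controls, then 16, 22, 17 and 22 (1, 2, 4 and 8 h of drug). Its call (adjusted p = 0.0352, edgeR) was lost without control 1 (0.0775), without 4 h (0.0643), without 8 h (0.102) and with the header factors (0.175).

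Members sat more often than other sites in loci with a single 3' end. A locus here joins ends of 1 chromosome and strand that each lie within 2000 nt of the next, so it can join neighbouring genes. A single end was found for 305 members (31.8%) against 24.3% of other sites, 2 ends for 232 (24.2%) against 23.4%, 3 ends for 173 (18.0%) against 18.3%, and 4 or more for 250 (26.0%) against 34.0%. In loci with several ends, a member was the most abundant end in 49.2% of cases, against 50.1% for other sites. It was the most proximal in 33.9%, against 28.0%, and the most distal in 35.4%, against 36.5%. Members thus lay about as often as other sites at the distal end of their locus.

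Ends of 1 locus mostly had similar shares in fraction 2.5. The members lay in 703 loci, of which 264 had 2 or more ends with 100 fraction counts, and in 137 of these (51.9%) every such end was a member. The 178 ends of these loci that were not members had a median of 35.2% in fraction 2.5, and 137 of them had their highest share there. Among 3656 loci, the 2 ends with most fraction counts had shares in fraction 2.5 that correlated across loci (Pearson's r of 0.90, Spearman's rho of 0.88), as a description over loci that share the same 6 fractions. Of the 210 loci in which the proximal end was a member, the distal end was a member in 156 (74.3%), against 5.42% of all distal ends. Of the 198 in which the distal end was a member, 78.8% had a proximal member, against 5.74% of all proximal ends. Some of these pairs lay as little as 21 nt apart, where reads may be assigned to either end. The likeness of the 2 ends was not broken down by distance. The median distance between the 2 shares was 3.48 points in the 252 loci with a member and 2.25 points in all 3656.

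**Figure D5:**
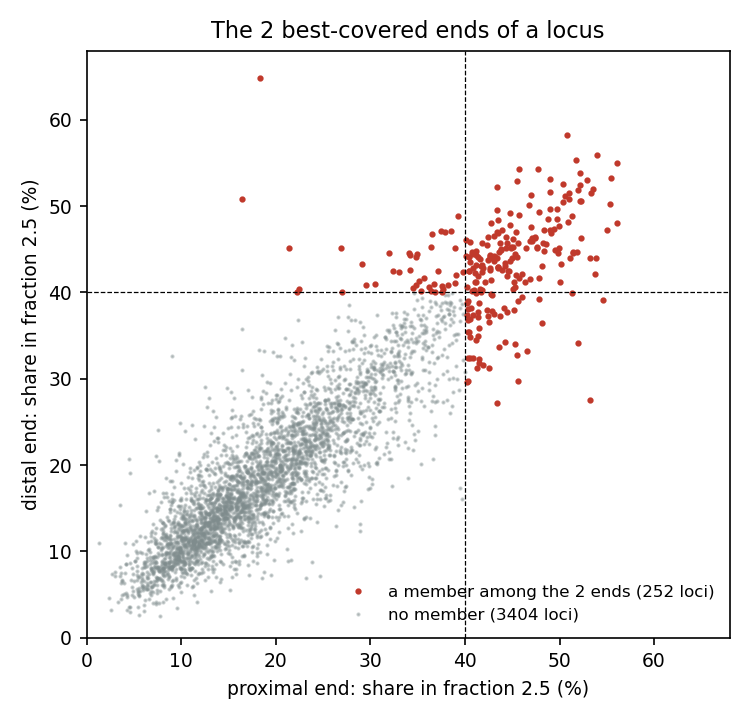
Share of scaled counts in fraction 2.5 (percent) of the distal end against that of the proximal end, for the 2 ends with most fraction counts in each of 3656 loci. Red points are the 252 loci with a member among the 2 ends and grey points those with none, and dashed lines mark 40%. Points lie along the diagonal (Pearson r of 0.90), with 4 red points in which the ends differ by 20 points or more.

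In 4 of these 252 loci the 2 ends differed by 20 points or more, and these were singled out after their values were seen. On chromosome 8 (minus strand), the distal member at 114515681 had 64.9% in fraction 2.5, against 18.4% for the proximal end at 114517343, 1662 nt away. The proximal end was the abundant one, with 277 CPM against 2.96 CPM for the member. On chromosome 10 (minus strand), the distal member at 80362656 had 50.8%, against 16.4% for the proximal end at 80364108, and both were abundant, at 91.6 CPM in the member and 129 CPM in the other end. The member made up 38.0% and 45.3% of the counts of this pair in the controls, then 58.0%, 69.7%, 69.4% and 85.2% (1, 2, 4 and 8 h of drug), and each treated library was above both controls. In the test of pairs described further on, the member was lost more slowly, with a slope difference of 0.36 ± 0.06 log2 per hour (adjusted p = 0.0242, edgeR). That call was lost at least without 8 h, without 1 h and without control 2. The member's half-life in the authors' deposited table is 13.5 h, against 2.42 h for the proximal end. On chromosome 6 (plus strand), the distal member at 81909083 had 45.1%, against 21.4% for the end at 81908946, and the proximal member at 85877371 had 53.3%, against 27.6% for the end at 85880273. The member at 85877371 had 102 fraction counts and 0.327 CPM in the controls.

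Some loci held several member ends, and since these were counted by the 40% limit, the shares of their members are given as a description. There were 176 loci with 2 or more member ends, 52 with 3 or more and 6 with 5 or more. The locus on chromosome 13 (plus strand, 90244166 to 90247484) held 11 ends, of which 10 were members with 41.9% to 48.8% in fraction 2.5 and 115 CPM in sum. Its members' half-lives in the authors' deposited table ran from 2.18 to 8.77 h, among ends with nearly the same gradient share, and whether they differ beyond their error was not tested. Of its 9 tested members, 3 rose, beside 41.0% of all tested members and 20.8% of all sites tested.

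Of the other 5, the pair of neighbouring loci on chromosome 6 (plus strand, 66967719 to 66968282 and 66970669 to 66971334) had the highest shares. All 6 ends of the first were members with 50.3% to 56.3%, and all 5 of the second with 47.6% to 51.1%. They had 160 and 137 CPM in sum, and 4 of 6 and 4 of 5 members rose. The locus on chromosome 6 (minus strand, 13819073 to 13820127) was the most abundant, with 522 CPM over 5 members at 44.3% to 46.9%, of which 2 rose. The locus on chromosome 4 (minus strand, 109124984 to 109126403) had 5 members at 40.02% to 45.3% and 242 CPM, of which 2 rose. The locus on chromosome 2 (minus strand, 52255496 to 52257788) had 6 members at 43.7% to 54.5% but only 18.5 CPM in sum. Of its 5 tested members, 0 rose.

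Whether 2 ends of a locus were lost at different rates was tested within libraries, on the 3844 loci with at least 60 counts at each of the 2 most abundant ends. A pair was called in 11 of the 244 with a member end (4.51%), against 4.29% of all pairs, so pairs with a member were called about as often as all pairs. Both ends were members in 143 pairs, of which 6 were called, and 1 end in 101, of which 5 were called. In these 5 the member was lost more slowly in 3 and faster in 2, and the median slope of the member minus that of its neighbour was -0.03 log2 per hour. The count rests on single libraries: it was 0 without 8 h (44 at an unadjusted p under 0.05, edgeR), 2 without control 2, 2 without 4 h and 4 without 1 h, and 25 with DESeq2. The calls over all 3844 pairs moved too, to 0, 14, 18 and 40 in the same order and to 325 (8.46%) with DESeq2.

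The pair with the lowest adjusted p had a member at both ends, on chromosome 6 (minus strand, proximal 4027877 with 49.9% and distal 4026903 with 44.6% in fraction 2.5). The distal end made up 64.1% and 68.6% of the pair's counts in the controls, then 67.6%, 75.6%, 80.4% and 91.8% (1, 2, 4 and 8 h of drug). From 2 h on its share was above both controls, with a slope difference (distal minus proximal) of 0.31 ± 0.04 log2 per hour (adjusted p = 0.0125, edgeR). Among the alternatives run, this pair lost its call without 8 h (adjusted p = 0.173, edgeR) and kept it under the others.

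The member pair on chromosome 15 (plus strand, proximal 80087307, distal 80087969) went the other way and involved an abundant end. The distal end had 905.8 and 1202.5 CPM in the controls, then 542.9, 275.3, 153.3 and 62.8 (1, 2, 4 and 8 h of drug). The proximal end had 26.9 and 27.8 CPM in the controls, then 22.8, 33.3, 30.9 and 28.4 (1, 2, 4 and 8 h of drug). The distal end was lower in each later library, while the proximal end stayed between 22.8 and 33.3 CPM, and the half-lives in the authors' deposited table are 0.959 h for the distal and 5.98 h for the proximal end. The slope difference was -0.53 ± 0.07 log2 per hour (adjusted p = 0.0187, edgeR), with adjusted p of 0.067 without control 2, 0.0577 without 4 h and 0.0631 without 8 h. These ends lay 662 nt apart and had 48.1% (distal) and 56.0% (proximal) in fraction 2.5.

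On chromosome 3 (minus strand) the proximal member at 127510184 outlasted the distal end at 127509931, 253 nt away, which had 39.2% in fraction 2.5 against 47.8% for the member. The member had 102 and 76 counts in the controls, then 120, 120, 154 and 165 (1, 2, 4 and 8 h of drug). The distal end had 469 and 605 counts in the controls, then 495, 375, 230 and 132 (1, 2, 4 and 8 h of drug). The difference was -0.37 ± 0.05 log2 per hour (adjusted p = 0.0172, edgeR; 0.0501 without 4 h and 0.106 without 8 h). On chromosome 2 (plus strand) the distal end at 166621661 had 108 and 119 counts in the controls, 31 at 1 h and 0 at 2, 4 and 8 h, beside 30 and 19, then 37, 33, 43 and 10 counts of the proximal member at 166619887. That pair passed (adjusted p = 0.0172, edgeR) but not with DESeq2 (0.0782), without control 2 (0.067), without 4 h (0.0663) or without 8 h (0.0613).

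The sixth place by adjusted p was shared by the pair at 80364108 and 80362656 on chromosome 10, in which the member gained, and a pair on chromosome 2. In the fifth pair and that chromosome 2 pair, the member was the distal end and lost ground to a scarcer proximal end with no half-life in the authors' deposited table. On chromosome 2 (minus strand) the member at 84509379 had 56.0% in fraction 2.5, against 12% for the proximal end at 84511473. The member made up 90.8% and 91.9% of the pair's counts in the controls, then 88.3%, 86.2%, 84.2% and 76.2% (1, 2, 4 and 8 h of drug). Each treated library was under both controls, with a difference of -0.21 ± 0.03 log2 per hour (adjusted p = 0.0231, edgeR). On chromosome 2 (plus strand) the member at 155076008 lay 24 nt from the end at 155075984 and made up 98.7% and 99.2% of the counts in the controls, then 98.9%, 98.4%, 98.2% and 96.5% (1, 2, 4 and 8 h of drug) (-0.22 ± 0.04 log2 per hour, adjusted p = 0.0242, edgeR). Reads of ends so close may be assigned to either. Both calls were lost without 1 h, without 4 h, without 8 h or without control 2, with adjusted p from 0.0549 to 0.302, and that of the first also without control 1 (0.0502).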

How the data were processed

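2P-Seq libraries of 3T3 cells were analysed from the authors' deposited table of raw read counts at poly(A) sites, with positions in mm9 per the file headers. Reads had been aligned with Bowtie, as the submitters' processing notes state (version not given in the sources used here). Per site, the authors also deposited a half-life and a number of ribosomes per mRNA. For shares and time courses, counts were divided by the library factors in the file headers. Fraction columns carry ribosome numbers and were not tied to the numbered fraction labels. Per-sample columns left unused numbered 0, and 2 3P-Seq libraries were not analysed here.

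Slopes on hours, with the controls at 0 h, were tested in R 4.3.3 with edgeR 4.0.16 (quasi-likelihood F test, robust, TMM) over all sites with 60 or more counts in the 6 libraries, with Benjamini-Hochberg adjustment over 16913 sites. The TMM factors ran from 0.684 (8 h) to 1.26 (control 2). Pairs, formed by the most abundant 2 ends of each locus (60 counts each), were tested for an end by hours interaction with a term per library, adjusted over 3844 pairs. CPM uses library totals. Scripts were tested on simulated data. DESeq2 1.42.0, header factors, other minimums, other limits, other locus distances and leaving out each library were the alternatives.

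The members, lists and rules were chosen with earlier results of these data known. Ends named are the 10 members with the highest control CPM, the 6 with the highest share in fraction 2.5, the 5 most negative and 5 most positive slopes among called members, the 3 sites on each side of the limits, loci with many member ends (those with 5 or more in full) and the 6 called pairs with the lowest adjusted p. Gene lists and cell markers were not used, since the positions were not matched to genes.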

Additional observations from a re-analysis of the deposited data

How the results depend on the processing

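The 356 rising and 89 falling members became 62 and 236 with the header factors. With a count minimum of 300, 54 fell, which was 10.1% of the 534 members tested, against 31.9% of all sites. The 960 members became 98 with library totals, 639 and 395 with minimums of 300 and 1000 fraction counts, and 1701 and 154 with limits of 0.35 and 0.5. In the order library totals, 1000 counts, 0.35 and 0.5, rising members were 46, 227, 554 and 71 and falling members 5, 44, 243 and 8. As shares of the members tested, 52.3%, 57.5%, 35.8% and 50.7% rose in that order, against 41.0% in the main choice. Those that fell were 5.68%, 11.1%, 15.7% and 5.71%, against 10.2%. The median half-life (4.86 h) was 5.75 h with library totals, 5.35 h and 5.76 h with the 2 count minimums, 4.35 h and 6.23 h with the limits, and 5.29 h with members lacking one placed on top. The median control CPM (12.1) was 13.1, 28.9, 59.99 and 10.1 with library totals, 300 counts, 1000 counts and 0.5. The share in loci with 1 end (31.8%) was 35.7% with library totals and 35.7% with 0.5, and 39.6% and 24.7% with linkage over 1000 and 5000 nt. Called pairs with a member (11 of 244) were 25 of 244 with DESeq2 and 32 of 281 with 5000 nt. Of all pairs, 8.46% and 7.40% were called there, against 4.29%.

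Without each library in turn, rising members ranged from 280 to 361, falling members from 73 to 88 and called pairs from 0 to 13. The rising were 32.2% to 41.5% of tested members, against 14.9% to 21.1% of all sites. The falling were 8.40% to 10.1%, against 20.8% to 27.7%. Of all pairs, 0% to 3.43% were called. Among 274 comparisons of named ends with an alternative, 259 kept direction and side of the threshold, 7 lost a call and 8 reversed. With the header factors the reversals were 54683992 (-0.0197), 80292034 (-0.0047), 25189993 (-0.0446), 114515681 (-0.0899), 96704224 (-0.0996) and 113017424 (-0.00302). The ends at 114515681 and 113017424 also reversed once each, ranging from -0.0012 to 0.32 and from -0.011 to 0.17 without single libraries. Of 75 such comparisons of pairs, 56 kept their call and 19 lost it. No cause was tested here.

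Each time and fraction has 1 library. No paired analysis was possible because numbers shared by controls and fractions are shared by label only. Depth limits the scarce members: 91 were too shallow to test.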

Other observations

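Members were unevenly placed along the genome. Of the sites with 100 or more fraction counts, chromosome 6 had the highest share of members, 83 of 819 (10.1%), followed by chromosome 13 with 49 of 563 (8.70%), while chromosome X had 15 of 474 (3.16%). These are counts of ends, and ends of 1 locus mostly had similar shares. On chromosome 13, 10 members lay in 1 locus, and chromosome 6 had loci with 6, 5 and 5 members. Windows of 1 Mb were picked after their values were seen and are given without a test. On chromosome 17, between 33 and 34 Mb (mm9), 9 of 25 sites were members, in 7 of 19 loci. Their half-lives in the authors' deposited table had a median of 0.556 h, from 0.0595 to 3.78 h, and their median control level was 2.93 CPM. Of the 5 tested there, 3 fell (edgeR), beside 10.2% of all tested members and 28.2% of all sites tested. Chromosome 17 held 9 of the 58 members with a half-life under 1 h, chromosome 5 held 8, chromosome 7 held 7 and chromosome 8 held 5. These lay in 7, 6, 7 and 5 loci. The same chromosomes held 42, 61, 59 and 65 members, and over all members with a half-life 6.18% were under 1 h.

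A window on chromosome 10, between 80 and 81 Mb, had higher levels and longer half-lives. Its 6 members, of 52 sites, lay in 5 loci, with a median of 122 CPM and a median half-life of 8.37 h, and 5 of 6 rose. Members at 100 CPM or more over the genome had a median half-life of 7.17 h, and 78.0% of those tested rose, so these values were near those of abundant members. Members in both windows met the same limits in the gradient.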
